A study of Mus musculus with 15 samples.

Results

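The comparison described here sets declining arthritis of the mouse tarsal joint against arthritis of week 3 to 4, over every gene that the arrays measured. Its members are the 6 arrays, of 15 in the series, that the labels place in these groups: declining joints of animals 15, 21 and 10, and week 3 to 4 joints of animals 54, 29 and 60. All 6 mice were male DBA/1JBom, and no source used here gives their age. Collagen-induced arthritis (CIA) had been started in each with 100 µl of chicken collagen type II at 2 mg/ml in complete Freund's adjuvant at 0.5 mg/ml, injected into the skin on day 1, with a boost in incomplete adjuvant on day 21. The week 3 to 4 joints held a clinical score of 3 when they were taken, 3 to 4 weeks after the joint became arthritic. The declining joints had held a score of 3 for more than 2 weeks by the labels, or for at least 3 weeks by the series description, and their score had then dropped by at least 1. The study's methods put that drop at more than 1, and its sample overview gives a score below 2 at sampling. The 2 groups therefore differ in score and may also differ in time since onset. The other arrays are 3 controls, which the labels call non-induced, and 6 joints of weeks 0 to 2 (day 0 to 3, or week 1 to 2), of which 5 passed quality control and enter the fit. Whether the controls had received adjuvant is not settled by the sources used here. Each array holds RNA of the tarsal joint of 1 animal, with an RNA integrity number of at least 8.4, from which skin, fur and visible muscle had been dissected away.

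In CIA, an immune response to cartilage collagen brings neutrophils and macrophages into the synovium and the tissue around tendons, where fibroblasts and osteoclasts erode bone and cartilage. Metalloproteinases and cathepsins take matrix apart, while fibroblasts, tendon cells and osteoblasts lay down collagen, small proteoglycans and matricellular proteins, and new bone and cartilage form at the joint margin. When the clinical score falls, swelling subsides while the rebuilt bone and matrix remain.

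Joint genes were present in all 6 arrays, as the label of a tarsal joint implies. Of 8 defining genes of a tarsal joint, 7 were measured, and in all 6 arrays their values lay between 7.44 and 12.62 on the log2 scale of the deposited values, above the array medians of 6.29 to 6.39. Muscle genes were also present, since the means over Acta1, Ckm, Myh4 and Tnnt3 lay between 10.48 and 10.90 in week 3 to 4 and between 10.63 and 11.51 in decline. The means over Krt1, Krt5, Krt10, Krt14 and Lor, genes of the epidermis, ran from 7.32 to 11.20 in week 3 to 4 and from 10.58 to 11.61 in decline. In bulk tissue, fewer cells of a type and less RNA per cell cannot be told apart.

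The joint of animal 10 stood apart from the other 5. Its root mean square distance to the other 2 declining joints was 0.60 and 0.67 log2 units over all genes, and to the week 3 to 4 joints 0.56 to 0.74. The declining joints of animals 15 and 21 lay 0.34 to 0.48 from the week 3 to 4 joints, which lay 0.39 to 0.42 from each other. By this distance 2 of the 3 declining joints were about as near to the week 3 to 4 joints as those were to each other. The array of animal 10 also had the narrowest spread of values over genes, with an SD of 1.28 against 1.48 to 1.65 in the other 5. The part of that narrower range in the results was not tested, and values without animal 10 are given for many of them.

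**Figure D1:**
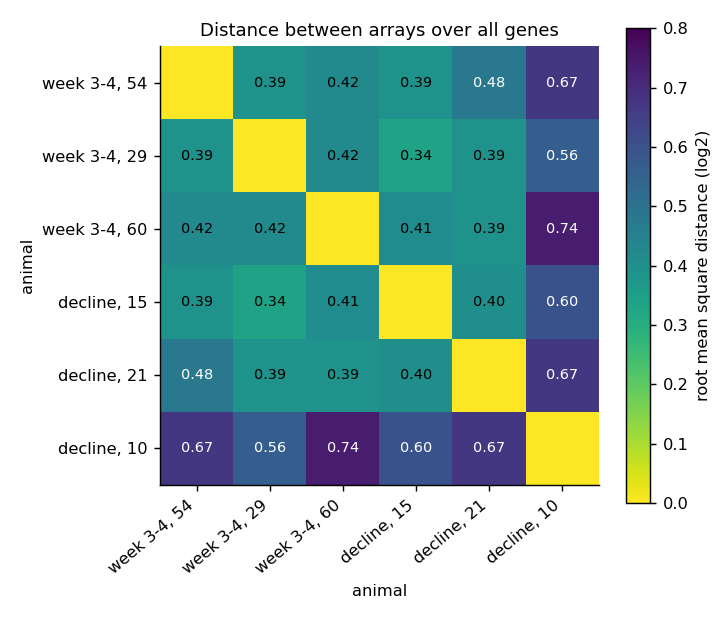
Root mean square distance in log2 units between each pair of the 6 arrays, over 19938 genes, with animals named by group and number on both axes. The row of decline animal 10 holds the largest distances, 0.56 to 0.74, while the other pairs lie between 0.34 and 0.48.

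No gene passed the test. Between decline and week 3 to 4, 0 of 19938 genes (0.0%) had a Benjamini-Hochberg adjusted p under 0.05 in limma. The unadjusted p was under 0.05 for 1223 genes (6.13%), 571 higher and 652 lower in decline, and for 588 genes when the spread was taken from the 6 arrays alone, gene by gene. At a fold of at least 2 with an unadjusted p under 0.05, a rule without correction for the number of genes, 49 genes (0.246%) were higher and 37 (0.186%) lower in decline. The median log2 difference over all genes was 0.02, with 46.5% of genes below 0. All 3 declining joints lay above all 3 week 3 to 4 joints for 864 genes (4.33%) and below them for 896 (4.49%), and counts of lists are read against these shares. Because no gene was called, the genes below are described by their values and intervals, and none is said to have changed.

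Single joints set much of the list at 2-fold. Of the 37 lower genes, 35 had their lowest of the 6 values in animal 10, and 6 of the 37 were still at least 2-fold lower without it. Among the 49 higher genes, 33 had their lowest value in animal 54 of week 3 to 4, and 26 were still at least 2-fold higher without that joint. Leaving out any 1 of the 6 joints kept 15 genes at least 2-fold higher and 3 at least 2-fold lower, whatever their p. The 15 were the hair and epidermal genes Gm10228, Gm10229, Gm11559, Krt25, Krtap19-5, Krtap4-16, Krtap6-1, Lce1f, Lce1g, Lce1h and Tchh, most of them keratins, keratin-associated or late cornified envelope genes, and the small nucleolar RNAs Rnu3a, Snord118, Snord82 and Snord96a. The 3 lower genes were Slc44a1, C130021I20Rik and the small nucleolar RNA Snora33. Probe sets of keratin-associated and cornified envelope genes can share signal between near-identical copies, so that single members of those families are uncertain.

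Dusp12, a dual-specificity phosphatase, had the lowest p of any gene. Its log2 values were 6.31, 6.44 and 6.18 in week 3 to 4 (animals 54, 29 and 60, an order kept below) and 5.35, 5.43 and 5.11 in decline (animals 15, 21 and 10). The groups did not overlap, and the difference was -1.01 with a 95% interval from -1.35 to -0.68 and an adjusted p of 0.328 in limma. A second probe set that names Dusp12 differed by 0.03, so the gap was seen by only 1 of the 2.

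Slc44a1, a choline transporter, had the largest gap among lower genes of at least moderate level. Week 3 to 4 joints read 10.09, 10.18 and 10.04, and declining joints 8.55, 9.02 and 6.99. Every declining joint was lower, and animal 10 was the lowest, below the control mean of 7.27 ± 0.20 (SD, n = 3). The difference was -1.91 (3.77-fold lower, 95% interval -2.71 to -1.12, adjusted p 0.787 in limma) and -1.32 without animal 10. Its other probe set differed by -0.07, so again only 1 probe set of the gene carried the difference.

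Rgs2, which restrains signalling through G proteins, and Bub1, a mitotic checkpoint kinase, were lower with little spread. Rgs2 read 9.02, 8.88 and 9.30 in week 3 to 4 against 8.01, 8.26 and 8.24 in decline. The difference of -0.89 had an interval from -1.29 to -0.50, did not rest on animal 10 (-0.93 without it), and left the declining joints above the control mean of 7.63 ± 0.38 (SD, n = 3). Bub1 stood at 5.92, 5.93 and 5.93 against 4.96, 4.64 and 5.32, a difference of -0.95 (interval -1.32 to -0.58). These Bub1 values lie below the array medians.

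Higher in decline with similar precision were Hamp2, a gene of the iron hormone hepcidin family, and H4c8, a histone H4 gene. Hamp2 read 8.39, 9.16 and 8.82 in week 3 to 4 and 9.59, 10.45 and 9.89 in decline. All 3 declining joints exceeded every week 3 to 4 joint and the control mean of 8.77 ± 0.24 (SD, n = 3), by a difference from week 3 to 4 of 1.19 (interval 0.66 to 1.71). H4c8 stood at 6.91 in each week 3 to 4 joint and at 7.87, 7.70 and 7.93 in decline, a difference of 0.92 (interval 0.53 to 1.31). The adjusted p of these 4 genes was 0.787 in limma.

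**Figure D2:**
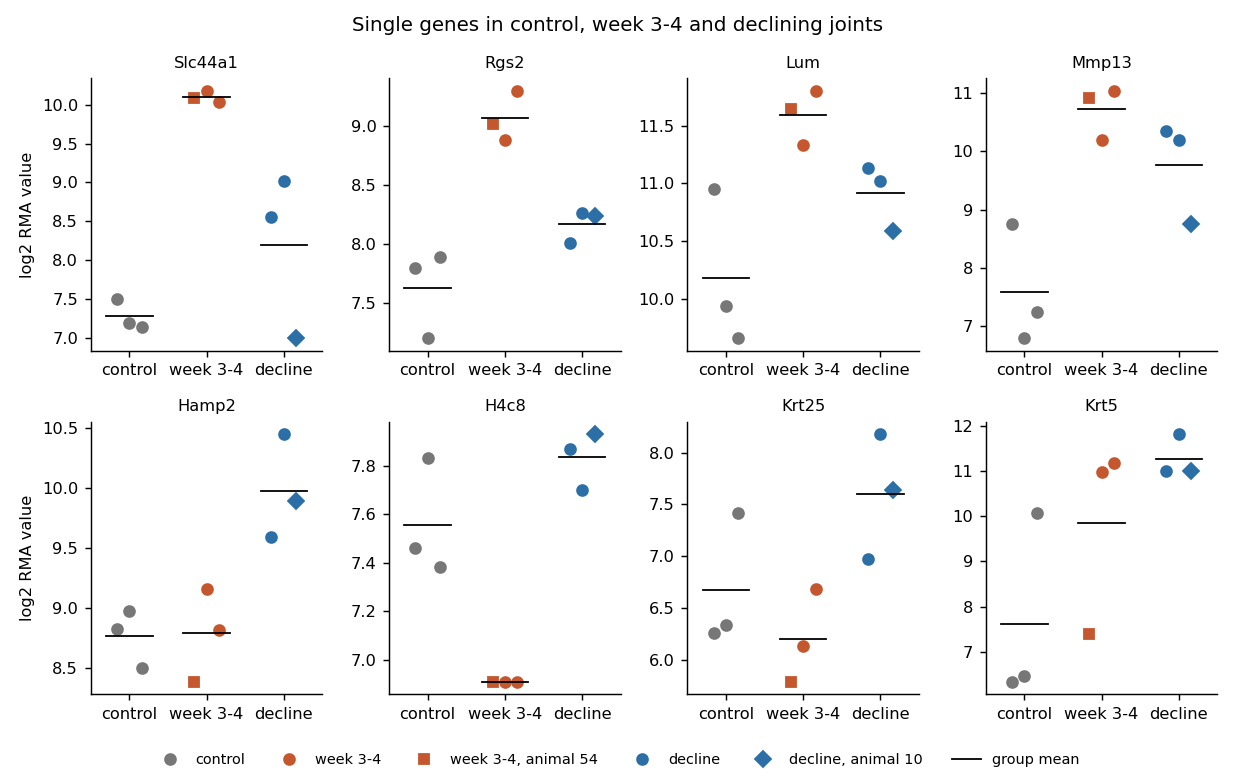
Log2 RMA values of 8 genes in the 3 controls, the 3 week 3 to 4 joints and the 3 declining joints, with a line at each group mean and separate markers for animals 54 and 10. Slc44a1, Rgs2 and Lum are lower in all declining joints than in all week 3 to 4 joints, Hamp2, H4c8 and Krt25 are higher in all, and the lower mean of Krt5 in week 3 to 4 comes from animal 54 alone at 7.40.

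Among non-overlapping genes with a group mean of at least 6, the largest higher differences were of 4 kinds. Cornified envelope and skin genes were Dapl1, Lce1b, Lce1d, Lce1f, Lce1h and Aadacl4, with differences from 1.26 to 2.08 that came to 0.60 to 1.11 without animal 54, and hair genes were Gm11559 (2.79), Krtap4-16 (2.17) and Krt25 (1.39). The others were the small nucleolar RNAs Snord118 (1.87) and Rnu3a (1.33), and Fabp3, a fatty acid carrier of muscle, at 7.32, 8.59 and 8.04 against 9.29, 9.02 and 9.29, a difference of 1.22 and of 0.99 on its second probe set.

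The largest lower differences in the same ranking were those of Slc44a1, Tmem126a, C130021I20Rik, Tceal9, Arhgap42, Brox, Lsm6, Snora33, Slitrk6, Zdhhc17, S100a4 and Ndufb3. Several of them were low in animal 10 and close to week 3 to 4 in animals 15 and 21. Lsm6, a component of the RNA-binding Lsm ring, read 10.27, 10.04 and 9.95 against 9.83, 9.91 and 6.71, and its difference of -1.27 came to -0.22 without animal 10. Tceal9, Arhgap42 and Brox came to -0.78, -0.71 and -0.62 without it. With all 6 joints, other probe sets differed by -0.46 for Arhgap42, -0.23 for Brox and -0.75 for Zdhhc17. For Lsm6 they differed by -1.16 and -1.64. Tmem126a, a mitochondrial membrane protein, went from -1.81 to -0.76 without animal 10, and Ndufb3, a subunit of respiratory complex I, from -1.14 to -0.34. S100a4, a calcium-binding protein of macrophages and fibroblasts, read 10.41, 10.40 and 11.08 against 9.46, 10.33 and 8.51, a difference of -1.19 and of -0.73 without animal 10. Slitrk6 (-1.26), Snora33 (-1.27) and C130021I20Rik (-1.55) kept differences of at least 1 log2 unit below 0 without that joint, although the second probe set of C130021I20Rik differed by 0.04.

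Genes of the fibrous matrix were lower in decline by small amounts that reached all 3 joints. Of 34 genes of the matricellular and fibrosis matrix list, 33 lay below 0, with a median of -0.25 against 0.02 over all genes, and 10 (29.4%) were lower without overlap, against 4.49% of all genes. The mean over the list read 9.21, 9.03 and 9.38 in week 3 to 4 and 8.97, 8.94 and 8.71 in decline. Every declining joint was below every week 3 to 4 joint, and controls read 9.04, 8.34 and 8.45. The list's median was -0.19 without animal 10, and -0.07 once each array had been set to 1 median and SD, so that its size depended on the range of the arrays.

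Postn, periostin, which joins collagen to other matrix proteins, read 10.43, 10.43 and 11.38 in week 3 to 4 and 10.24, 10.09 and 9.18 in decline, a difference of -0.91 with an interval from -2.18 to 0.36, which came to -0.58 without animal 10 and to -0.60 without animal 60. Cthrc1, a secreted protein of matrix-forming fibroblasts, stood at 9.49, 9.47 and 9.87 against 9.45, 8.71 and 8.07, a difference of -0.87 and of -0.53 without animal 10. For Ccn1, a matricellular protein, the values were 9.48, 8.52 and 8.71 against 8.15, 8.45 and 7.24 (-0.96, and -0.60 without animal 10), and for Tnn, tenascin N, the difference was -0.72. In each of the 4 the declining joints were all lower, by a narrow margin in Cthrc1.

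Genes that build collagen were described in 2 lists, whose difference from each other was not tested. Among 30 folding and crosslinking genes, 24 were below 0 (median -0.34, or -0.20 without animal 10), and 7 (23.3%) were lower without overlap. Plod2, which hydroxylates collagen lysines for crosslinks, read 9.51, 9.15 and 9.40 against 8.95, 8.69 and 7.44, a difference of -0.99 and of -0.53 without animal 10. Fkbp14, a collagen-folding isomerase of the endoplasmic reticulum, differed by -0.69, and by -0.44 without that joint. The 35 collagen chains had a median of -0.01 and of -0.13 without animal 10, with 18 below 0 and 17 above, and 4 (11.4%) were lower without overlap while 0 were higher. Col1a1, the main chain of bone and tendon collagen, read 10.64, 10.69 and 10.94 against 10.13, 10.71 and 10.97, so that the groups overlapped. Its difference of -0.15 had an interval from -0.74 to 0.43. Col12a1, a collagen on the surface of fibrils, was lower without overlap at 9.73, 9.62 and 10.13 against 9.34, 9.18 and 8.70 (-0.76).

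The study had grouped 10 genes as a matrix profile for its sustained high level in weeks 0 to 2, a list chosen on these same samples and so no independent evidence of its direction. All 10 lay below 0, with a median of -0.55, of -0.47 without animal 10 and of -0.34 at 1 median and SD per array, and 6 were lower without overlap. Lum, lumican, a proteoglycan that spaces collagen fibrils, read 11.64, 11.33 and 11.80 in week 3 to 4 and 11.13, 11.02 and 10.59 in decline, a difference of -0.67 (interval -1.25 to -0.09, adjusted p 0.787 in limma). Bgn, biglycan, a related proteoglycan, stood at 11.22, 11.07 and 11.56 against 10.75, 10.95 and 10.45 (-0.57). Declining joints were lower in both and animal 10 was lowest. Of 15 tendon and ligament genes, 13 were below 0 and 4 (26.7%) lower without overlap, with a median of -0.28 and of -0.14 without animal 10. Among them Kera, keratocan, differed by -0.76 and Tnmd, tenomodulin, by -0.65, which came to -0.45 and -0.42 without that joint.

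Proteases of the eroding joint had lower group means in decline, with overlap between the groups for most of them. The study's 7 genes with the highest changes in joint disease (Saa3, Timp1, Postn, Ctsk, Mmp3, Mmp13 and Atp6v0d2), again chosen on these samples, were all below 0, with a median of -0.85 and of -0.44 without animal 10, and 1, Postn, did not overlap. Timp1, an inhibitor of metalloproteinases, differed by -0.61, by -0.26 without animal 10 and by -0.13 without animal 60, and Atp6v0d2, a proton pump subunit of osteoclasts, by -0.67 and by -0.30 without animal 10. Mmp13, a collagenase, read 10.92, 10.20 and 11.04 against 10.35, 10.20 and 8.76, and Mmp3, stromelysin, 9.51, 8.91 and 10.61 against 9.01, 9.54 and 7.92. The differences of -0.95 and -0.85 became -0.44 and -0.40 without animal 10, and that of Mmp3 was -0.39 without animal 60. Animals 15 and 21 thus held both within the range of week 3 to 4, and well above the control means of 7.59 ± 1.02 and 7.25 ± 1.03 (SD, n = 3). Animal 10 alone came near controls. Of 33 genes of the matrix protease and inhibitor list, 25 were below 0, 5 (15.2%) were lower without overlap and 1 was higher, with a median of -0.31, of -0.22 without animal 10 and of -0.13 without animal 60. Fap, a serine protease of activated fibroblasts, had the narrowest interval of the 3 proteases named, at 9.82, 9.46 and 9.85 against 9.18, 9.01 and 8.48 (-0.82, interval -1.38 to -0.26).

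The 100 bases before the RefSeq start sites are shown for 5 of these genes, to set the proteases beside a matrix, an S100 and a hair gene. Capitals mark TATAAA, the core of a TATA box, and TGANTCA, the site that AP-1 factors bind (both strands searched, and TGANTCA reads the same on both). The sequences are RefSeq's, build GRCm38.p6, 5′ to 3′ on the gene's strand, and lie in the gene's upstream flank: chr9:7445722-7445821 for Mmp3, chr9:7272414-7272513 for Mmp13, chr3:54361007-54361106 for the second of the Postn starts (the first, with chr3:54359167-54359266 before it, holds neither motif there) and chr3:90603670-90603769 for S100a4, all on the plus strand, and chr11:99322952-99323051 on the minus strand for Krt25.
Mmp3: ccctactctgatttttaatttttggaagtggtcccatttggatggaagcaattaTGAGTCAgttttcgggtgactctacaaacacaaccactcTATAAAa
Mmp13: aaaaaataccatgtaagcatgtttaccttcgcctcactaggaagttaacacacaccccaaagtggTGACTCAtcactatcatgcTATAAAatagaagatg
Postn: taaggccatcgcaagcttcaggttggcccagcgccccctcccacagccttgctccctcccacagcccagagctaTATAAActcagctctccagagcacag
S100a4: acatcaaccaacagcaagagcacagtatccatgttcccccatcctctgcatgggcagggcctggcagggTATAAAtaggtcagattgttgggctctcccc
Krt25: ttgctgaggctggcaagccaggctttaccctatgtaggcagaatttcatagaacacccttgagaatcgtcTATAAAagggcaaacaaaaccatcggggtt

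Both protease promoters hold TGANTCA and TATAAA, the first beginning 46 bases before the start in Mmp3 and 35 in Mmp13. In the 250 bases before all 32851 RefSeq starts, TGANTCA occurs in 6.75% and TATAAA, on either strand, in 12.4%. A set defined below, of genes raised in the earlier arthritic joints against controls, had 680 members with a promoter. TGANTCA occurred in 7.5% of them, against 7.12% of 15614 genes on the array, and TATAAA in 10.9% against 12.5%. Of the study's genes with the highest changes, 6 had a promoter, of which 2 held TGANTCA and 3 held TATAAA. The promoters printed above were chosen, so they do not show how common the motifs are. All these motif hits are matches of letters, and binding was not measured.

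Osteoclast genes were mostly below 0 in decline, with a few that did not overlap. Of 31 osteoclast genes, 25 were below 0, with a median of -0.27 and of -0.16 without animal 10. Lower without overlap were 5 (16.1%), against 4.49% of all genes. Ctsk, cathepsin K, the collagen-degrading protease of osteoclasts, read 10.78, 10.23 and 11.25 against 10.14, 10.35 and 9.75 (-0.67, and -0.42 without animal 60), and Acp5, tartrate-resistant acid phosphatase, 10.02, 9.63 and 9.94 against 9.68, 9.47 and 9.08 (-0.45, and -0.29 without animal 10). Both ranges overlapped between the groups, and all 6 joints exceeded the control means of 7.88 ± 1.25 and 7.87 ± 0.82 (SD, n = 3). The osteoblast and mineralisation list chosen here had a median of -0.11 (-0.04 without animal 10) and cartilage genes of 0.03 (-0.07 without it). The study's own bone profiles, chosen on these samples and so no independent evidence of direction, lay below 0 in every gene measured. The 4 osteoclast genes had a median of -0.48 (-0.20 without animal 10) and the 4 early osteoblast genes of -0.42 (-0.27). The 6 late osteoblast and mineralisation genes had -0.28 (-0.25). Those 6 include Dmp1, which the study lists outside its late profile. Spp1, Enpp1 and Bglap1 of that profile were not measured here. In these profiles 1, 0 and 3 genes were lower without overlap. Ibsp, bone sialoprotein, was at 12.44, 12.02 and 12.19 against 11.91, 11.75 and 11.72 (-0.42, interval -0.86 to 0.02), lower in every declining joint. Acan, aggrecan of cartilage, read 8.52, 8.51 and 8.49 against 8.13, 8.36 and 7.92 (-0.37), and Prg4, the joint lubricant lubricin, differed by -0.20, and by -0.07 without animal 10, with overlapping ranges. Of 35 cartilage genes, 17 lay below 0 and 18 above. Those above included Clec3a (0.43, and -0.17 without animal 10) and Col10a1 (0.37, and 0.10 without it), both with overlap. Secreted WNT inhibitors went both ways without overlap, Sfrp2 by -0.74 and Sfrp5 by 0.52, in a WNT list whose median was 0.03.

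Neutrophil genes lay lower chiefly through animal 10. The neutrophil list of 23 genes had a median of -0.39, with 19 below 0 but only 1 (4.35%) lower without overlap. Its mean was 8.84, 8.31 and 8.34 in week 3 to 4 and 8.43, 8.27 and 7.51 in decline. Animals 15 and 21 thus matched animals 29 and 60, animal 54 was the highest and animal 10 the lowest, and the median came to -0.13 without animal 10. Camp, the cathelicidin of neutrophil granules, showed it plainly at 11.53, 11.29 and 10.23 against 10.57, 10.68 and 7.89, a difference of -1.30 that became -0.39.

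Macrophage genes gave a median of -0.27 over 35 genes, 31 of them below 0 and 4 (11.4%) lower without overlap. The list mean of 7.63, 7.45 and 7.96 in week 3 to 4 met 7.47, 7.62 and 6.86 in decline, with overlap between the groups and a median of -0.14 without animal 10. Ms4a6c, a myeloid membrane protein, read 8.38, 8.0 and 8.63 against 7.69, 7.92 and 6.01 (-1.13, and -0.53 without animal 10), and C3ar1, a receptor for a complement fragment that was counted in the complement list, 8.74, 8.59 and 9.20 against 8.24, 8.35 and 7.53 (-0.80). In those 2 genes all declining joints were lower. Clec4a1, a myeloid lectin receptor that was among the genes raised in week 0 to 2 and was chosen after its values were seen, read 7.97, 8.07 and 8.47 against 7.53, 7.51 and 6.04 (-1.14, and -0.65 without animal 10).

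The acute phase and S100 list had a median of -0.35, and of -0.11 without animal 10. Saa3, an acute phase protein of inflamed tissue, varied more between joints than any other gene of that list: 8.41, 9.21 and 11.31 in week 3 to 4 against 8.48, 9.37 and 6.79 in decline. The values of animals 54 and 15 were alike, those of 29 and 21 were alike, and the difference of -1.43 had an interval from -3.07 to 0.21 and came to -0.72 without animal 10 and to -0.60 without animal 60. The median was -0.16 for chemokines (-0.04 without animal 10 and -0.02 without animal 60), 0.01 for cytokines and their receptors, -0.05 for interferon-induced genes and 0.06 for B and plasma cell genes, against 0.02 over all genes. T cell genes had a median of 0.06 as well, and of -0.06 without animal 10, and 3 of 22 (13.6%) were lower without overlap and 0 higher. Cd3d, a subunit of the T cell receptor complex, was lower without overlap at 7.30, 6.92 and 7.53 against 6.83, 6.70 and 6.73 (-0.50, interval -1.10 to 0.10). Ctla4 of the same list differed by 0.34, with overlap, and 12 of the 22 genes lay above 0.

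Values of protein synthesis and secretion genes depended on animal 10 and on the scaling. Of 42 genes of the endoplasmic reticulum and secretory list, 35 lay below 0 (median -0.32), and the median was -0.12 without animal 10. Kdelr3, which returns escaped proteins to the endoplasmic reticulum, read 6.54, 6.93 and 7.45 against 5.89, 6.52 and 5.42, a difference of -1.03 without overlap. Ribosomal protein genes had a median of -0.24 over 39 genes, of -0.01 without animal 10 and of 0.16 with 1 median and SD for every array, so their direction turned with the scaling. Oxidative phosphorylation genes likewise went from -0.13 to 0.11 without animal 10 and to 0.02 with that scaling.

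Most skeletal muscle genes lay higher in decline, by a size that rested largely on animal 21. Of 38 contractile genes, 32 lay above 0, with a median of 0.36, of 0.42 without animal 10 and of 0.12 without animal 21, and 8 (21.1%) were higher without overlap against 4.33% of all genes. Means over the list were 9.25, 9.47 and 9.16 in week 3 to 4, 9.44, 10.01 and 9.27 in decline and 10.05, 9.95 and 10.58 in controls. Animal 21 was the highest of the arthritic joints, and the other 2 declining joints lay within the week 3 to 4 range. Ckm, muscle creatine kinase, read 8.96, 9.26 and 9.0 against 9.29, 10.27 and 9.48 (0.61, interval -0.10 to 1.31, and 0.31 without animal 21). Myh2, the myosin of fast oxidative fibres, stood at 9.83, 10.00 and 9.27 against 10.10, 10.47 and 10.39 (0.62, interval 0.10 to 1.13), the declining joints being higher in both. The largest difference of the list went the other way, in Pvalb, at 11.33, 11.63 and 12.06 against 11.11, 11.70 and 9.34. It was -0.96, and -0.27 without animal 10. Visible muscle had been removed, and how much stayed on each joint was not measured.

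Epidermal genes as a list lay higher largely through a single week 3 to 4 joint. Of 37 keratinisation genes, 36 lay above 0, and the median was 0.70, the largest of the 39 lists. It was 0.11 without animal 54 and 0.40 without animal 21. Some cornified envelope genes kept a larger difference without animal 54, among them Lce1f (1.11), Lce1g (1.20) and Lce1h (1.01). The list mean was 6.46 in animal 54 against 8.66 and 8.70 in animals 29 and 60, and 8.40, 9.37 and 8.45 in decline. Krt5, the keratin of basal epidermis, gave 7.40, 10.97 and 11.18 against 10.99, 11.82 and 11, and Krt2, a keratin of the upper layers, 6.47, 11.08 and 11.30 against 11.04, 11.79 and 11.39. Differences of 1.42 and 1.79 came to 0.19 and 0.21 without animal 54. Animal 54 is also the only 1 of the 6 whose array name carries the letter code of the earlier joints, where the list mean was 5.92 to 6.27, and no source used here says what the code stands for. Among controls the mean ran from 6.31 to 8.12, so their level differed within that group too.

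The hair follicle keratin genes did not rest on animal 54. Of 23, 21 lay above 0 (median 0.26, and 0.21 without animal 54). Tchh, trichohyalin of the inner root sheath, read 6.12, 6.61 and 7.45 against 7.43, 8.67 and 9.64, a difference of 1.85 and of 1.55 without animal 54. Krt25, an inner root sheath keratin, was at 5.79, 6.13 and 6.68 against 6.97, 8.18 and 7.64 (1.39, interval 0.53 to 2.26), higher in every declining joint. The median of the list was 0.08 without animal 10, whose mean of 6.89 was the highest of the 6. Controls had list means of 5.93, 6.15 and 6.86, so hair genes also varied within that group. Control 3 exceeded every declining joint for Gm10228 (11.75), Gm10229 (12.2), Krtap6-1 (9.94) and Krtap4-16 (8.96), while controls 1 and 2 lay below them all. It did not for Krt25 (7.42), Gm11559 (7.71) and Krtap19-5 (5.64). How much skin and hair stayed on each joint was not measured.

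**Figure D3:**
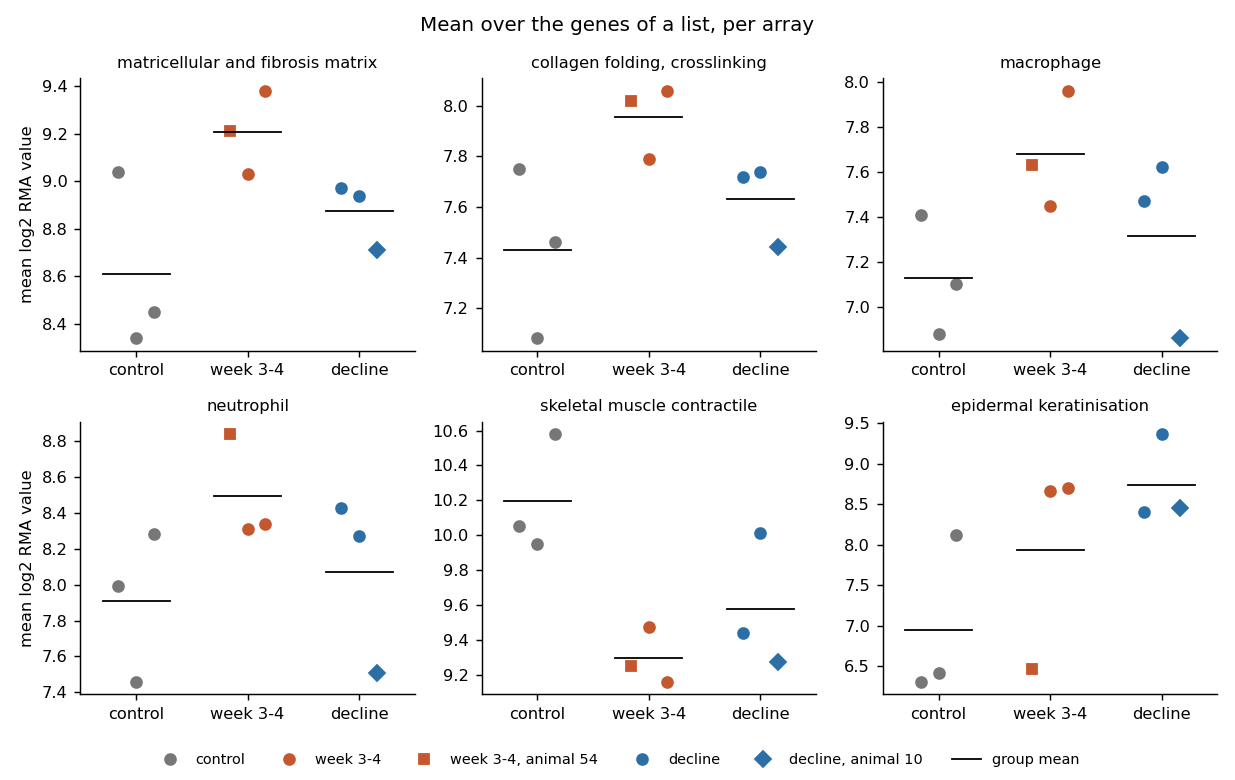
Mean log2 RMA value over the genes of 6 lists, 1 point per array, in controls, week 3 to 4 and decline, with a line at each group mean. The 2 matrix lists are lower in all 3 declining joints, the macrophage and neutrophil lists are low mainly in animal 10, and the epidermal list is low in animal 54 at 6.46.

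Across the 39 lists chosen for this tissue, 29 had a median below 0 and 10 above it. At or below -0.2 were 11 lists. They were neutrophil, acute phase, collagen folding, secretory, protease, tendon, osteoclast, macrophage, alternative macrophage activation, matricellular and ribosomal protein genes. At or above 0.2 were 3 lists, those of epidermis, muscle and hair. Without animal 10, only collagen folding (-0.20) and protease genes (-0.22) of the 11 stayed at or below -0.2. The rest lay between -0.19 (matricellular) and -0.01 (ribosomal protein). The epidermis, muscle and hair lists then had 0.99, 0.42 and 0.08. The lists share members, so they are not separate pieces of evidence.

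**Figure D4:**
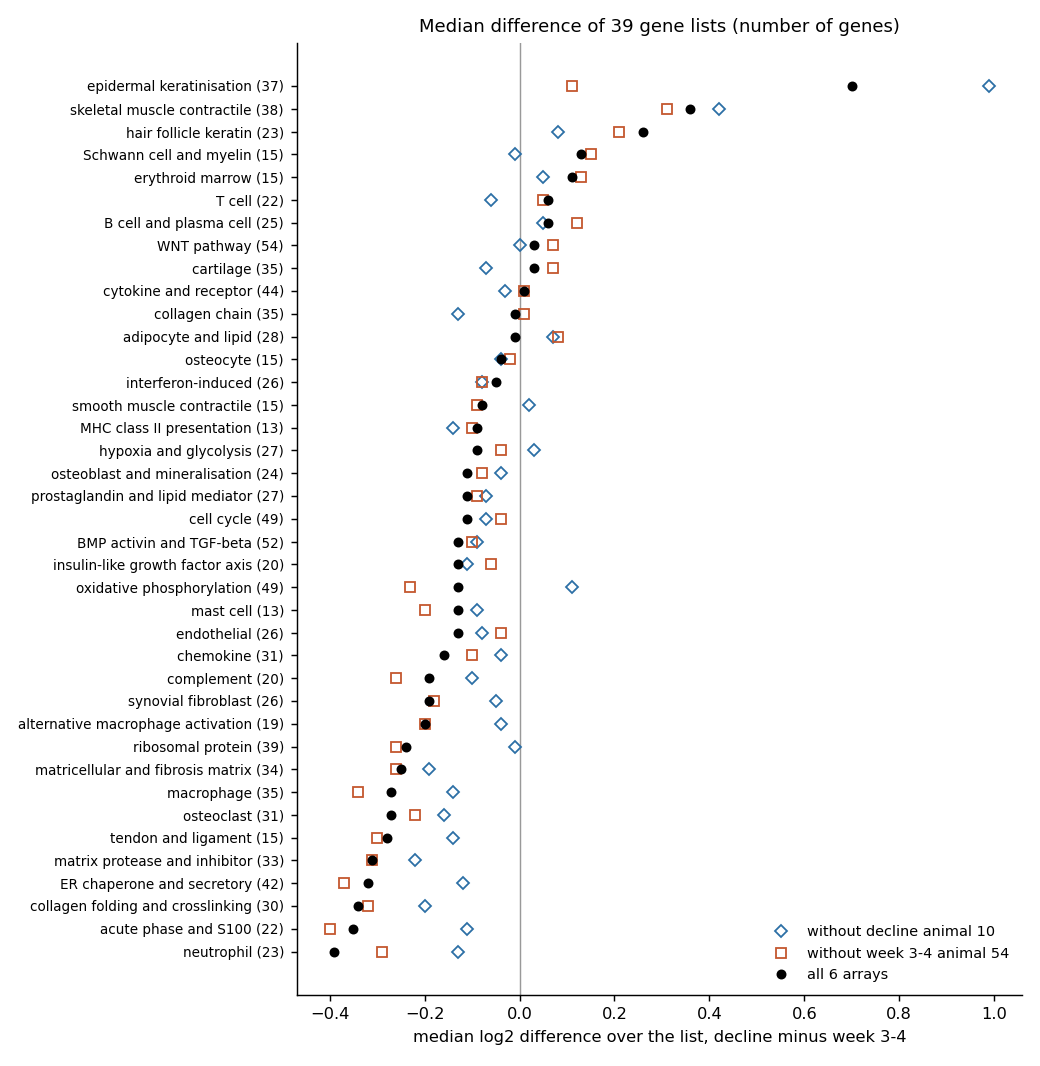
Median log2 difference, decline minus week 3 to 4, of each of 39 gene lists, with all 6 arrays, without decline animal 10 and without week 3 to 4 animal 54; the number of genes stands in brackets. Most lists left of 0 move towards 0 without animal 10, and the epidermal list moves from 0.70 to 0.11 without animal 54.

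The question whether a declining joint moves back from the inflamed state was put to genes chosen on other arrays. The 5 arrays of week 0 to 2 were set against the 3 controls, none of which is among the 6, and 867 genes (4.35%) were raised and 233 (1.17%) lowered at least 2-fold with an adjusted p under 0.05 in limma. From week 3 to 4 to decline, 96.2% of the raised genes lay below 0 against 46.5% of all genes, with a median of -0.46, and 151 (17.4%) were lower without overlap while 0 were higher. Of the lowered genes, 93.1% lay above 0 against 53.5% of all genes, with a median of 0.35, and 53 (22.7%) were higher without overlap while 1 was lower. The lowered genes included 20 of the 38 contractile genes of muscle and 1 of the 37 keratinisation genes. Cornified envelope genes such as Lce1c and Lce1f were among them. How much muscle and skin stayed on each joint was not measured. At 2-fold and an unadjusted p under 0.05, 29 of the 37 lower genes were among the raised genes, and 13 of the 49 higher genes were among the lowered.

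For the raised genes the array means were 8.50, 8.33 and 8.84 in week 3 to 4 and 8.29, 8.42 and 7.48 in decline, with controls at 7.84, 7.07 and 7.58 and week 0 to 2 at 8.68 to 9.06. Animals 15 and 21 were close to animals 54 and 29, and animal 10 was within the range of controls. Without animal 10 the median was -0.20, with 79.6% below 0. For the lowered genes the means were 6.89, 7.25 and 6.96 in week 3 to 4 and 7.34, 7.55 and 7.44 in decline, with controls at 7.71, 7.75 and 8.13. Here all 3 declining joints were above all 3 of week 3 to 4, and the median was 0.38 without animal 10 and 0.32 without animal 54. With 1 median and SD for every array the medians were -0.36 and 0.39, but both sets were still those chosen on unscaled values. Control 2, the lowest control for the raised genes at 7.07, also had a narrow range, with an SD of 1.22 over genes. Animal 10 had 1.28. The part of these narrow ranges in the choice of genes and in their medians was not tested.

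**Figure D5:**
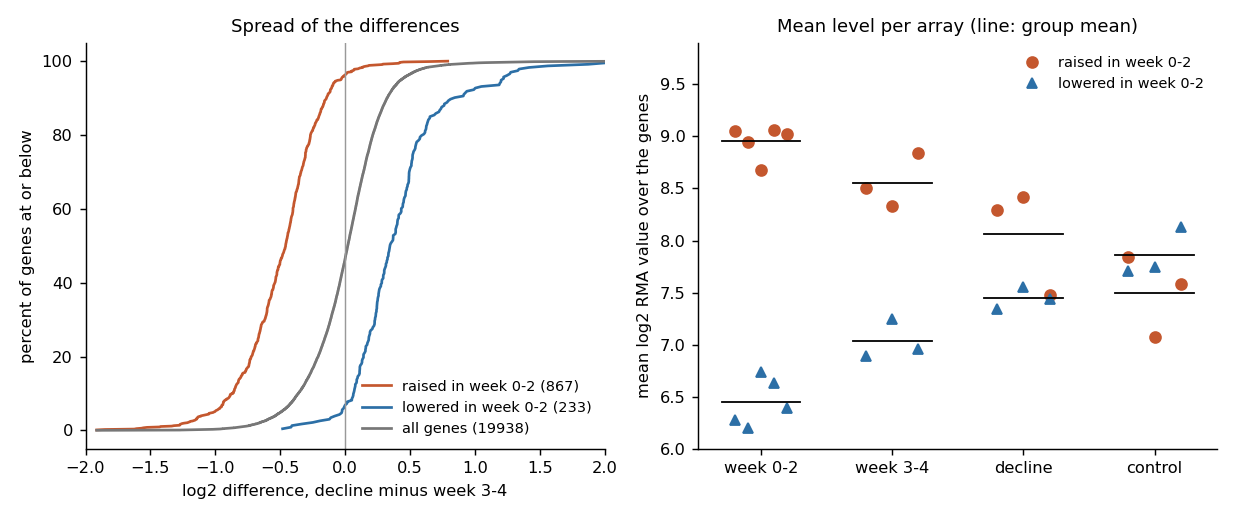
On the left, the percent of genes at or below each log2 difference (decline minus week 3 to 4) for all 19938 genes, the 867 raised and the 233 lowered in week 0 to 2; on the right, the mean log2 RMA value over the raised and the lowered genes in each array, with a line at each group mean. The raised genes lie left of all genes and the lowered genes right of them, and among declining joints animal 10 is lowest for the raised genes at 7.48.

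Genes of both sets with a group mean of at least 6 and no overlap, chosen after their values were seen, give examples. Among the raised genes were Clk4, a kinase of splicing factors, at 7.94, 7.92 and 8.04 against 6.91, 7.40 and 6.30 (-1.10), Tlr13, a receptor for bacterial RNA (-0.94, and -0.53 without animal 10), and Matn2, a matrix adaptor protein (-0.93, and -0.40 without it). Tmem147, a membrane protein of the endoplasmic reticulum, read 7.13, 7.72 and 8.29 against 7.01, 6.70 and 6.41 (-1.01). Among the lowered genes were the muscle genes Hspb3, a small heat shock protein, at 7.31, 7.29 and 6.50 against 7.88, 7.77 and 7.81 (0.78), Lmod3, an actin nucleator of muscle (0.49), and Mybpc1, a myosin-binding protein (0.51, and 0.32 without animal 21). Gstm1, a glutathione transferase, read 9.05, 8.63 and 8.58 against 9.35, 9.47 and 9.63 (0.73), the declining joints being above every week 3 to 4 joint.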

How the data were processed

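Tarsal joints of 15 mice were measured with Affymetrix Mouse Gene 1.0 ST chips of 1 colour, 1 animal per array. Per the labels and the submitters' processing notes, the authors ran RMA (background correction, quantile normalisation and probe summary) with affy in R 2.15, and deposited log2 values, here from 1.56 to 14.26. No source used here gives the version of affy. Arrays have no read depth, and their number limits the precision.

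Of 35556 probe sets, 21789 name 1 gene in the platform annotation (21698 also matched by gene identifier), 1621 name several and 12146 have none listed. Where a gene had more than 1 probe set (999 genes), the probe set with the highest mean over 14 arrays was used, leaving 19938 genes. The array of animal 57, which the labels exclude for failed quality control, was left out. One fit of all 5 group means, with no covariate, was made with lmFit and eBayes of limma 3.58.1 (R 4.3.3). The call was an adjusted p under 0.05 by Benjamini-Hochberg over all genes. Each sample is 1 animal. The calculation was tested on simulated data. Intervals are at 95%. Lists are described by counts and medians, without a test.

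The members and the 47 lists (39 chosen, 8 from the study, 1195 of 1285 entries measured) were chosen with earlier results of these data known. Genes are named if they were among the 12 largest non-overlapping differences in each direction with a higher group mean of at least 6, among the 4 largest of a list, or in a list of the study. Outside that rule are the genes with the lowest p, those at 2-fold without any 1 array, those called with array weights, single marker genes such as Prg4, and those said to be chosen after their values were seen. Alternatives were all 15 arrays, only the 6, an ANOVA of the 2 groups, trend and robust moderation, array weights, 3 rescalings, limits of 4 and 6 on the group mean, all probe sets, their mean, each array left out, the arrays of 1 letter code in the array names and other choices of the week 0 to 2 genes. Leaving out animals 10 and 54 together was added after the values were seen. Promoters are RefSeq's (250 bases before each start), and plots were made in Python 3.11.15 with matplotlib 3.10.9.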

Additional observations from a re-analysis of the deposited data

How the results depend on the processing

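No gene was called under any alternative but array weights, which called 6 (lower Bub1, Dusp12, Rgs2 and Slc44a1, higher Ephx4 and Snord96a). The count at 2-fold with an unadjusted p under 0.05 was 86, and 21 with the ANOVA of the 2 groups, 155 (128 higher) with array weights, 542 over all probe sets and 49 without animals 10 and 54 together. It was 71 to 303 with 1 array left out: 174 without animal 29, 262 without animal 15 and 303 without animal 21. The balance of directions also depended on single joints, since without animal 54, 26 of 81 were higher, and without animal 10, 59 of 71 were. Among the arrays of 1 letter code, 24 of 62 were higher. With a group mean of at least 6, 28 of 62 were higher. The median of the raised genes ran from -0.62 to -0.20 and of the lowered genes from 0.29 to 0.45 with 1 of the 6 arrays left out, and the lowered genes chosen with no fold limit had 0.16. Of 81 named genes that were followed, 79 kept the sign of their difference in every alternative that gave them a value (all probe sets gave none per gene). Genes named for a difference without overlap cannot change sign when 1 array is left out, so this count is no independent evidence of stability. The exceptions among the 81 were Col1a1 and Prg4. Col1a1 was at 0.02 after a second quantile normalisation, 0.19 with 1 median and SD for every array and -0.33 to 0.08 with 1 array left out. Prg4 was at 0.23 with 1 median and SD and 0.01 without animals 10 and 54. Clec3a, Col10a1, Ctla4 and Pvalb were not among the 81. Of these, Clec3a changed sign to -0.17 without animal 10, and Col10a1 to -0.05 without animals 10 and 54. Of the 47 lists, 16 had a median that moved by at least the spread set as a limit in 1 or more alternatives. The cause of these shifts was not tested. With 3 arrays a group and a median standard error of 0.20 log2 units, a difference smaller than the spread between joints could not be seen, and a p above the threshold does not show that the groups are alike.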

Other observations

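Genes of small nucleolar RNAs, which guide the modification and trimming of ribosomal and other RNAs, are on the array although they have no poly(A) tail. The group was chosen after its values were seen. Of 54 genes with that RefSeq class, 34 lay above 0 in decline minus week 3 to 4, with a median of 0.24 against 0.02 over all genes, and 7 (13%) were higher without overlap against 4.33% of all genes. Snord118, the U8 RNA, read 4.79, 5.97 and 5.88 in week 3 to 4 (animals 54, 29 and 60) and 7.31, 6.38 and 8.56 in decline (animals 15, 21 and 10). Rnu3a, a U3 RNA, stood at 8.12, 8.82 and 8.87 against 9.62, 9.95 and 10.24, and Snord82 at 7.59, 8.61 and 7.56 against 8.94, 9.0 and 9.43. All declining joints were higher in these 3 genes. Snora33 went the other way at 6.28, 6.60 and 7.23 against 5.45, 5.62 and 5.23. Over all 54 the mean was 5.79, 6.06 and 5.83 against 6.04, 5.93 and 6.55, so that animals 15 and 21 lay within the week 3 to 4 range and animal 10 above it, and the median without animal 10 was 0.00.

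MicroRNA genes had low values with a mean of 4.72 to 4.98 in week 3 to 4. Their median difference was 0.14 over 297 genes, and -0.02 without animal 10, whose array had the narrowest range of the 6.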
